A study of Mus musculus with 2 samples.

Results

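Respiratory complexes II to V of the mouse liver were described here through the nuclear genes for their subunits and assembly factors. The genes were taken from the array by symbol: the complex II genes Sdha to Sdhd and the Sdhaf factors, the complex III genes Uqcr, Cyc1, Uqcc and Bcs1l, the complex IV genes starting with Cox and a digit, and the ATP synthase genes starting with Atp5. The rule found 63 genes, on 123 probe sets, among the 18193 genes with a probe set of their own on the array. For each gene the brightest probe set, by the geometric mean of both arrays, stood for the gene. The members lie on 18 chromosomes, with at most 7 on any of them.

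The study asked what silencing of a microRNA does to liver transcripts. Mice had been injected with antagomir-122, an oligonucleotide complementary to the hepatocyte microRNA miR-122, or with mm-antagomir-122, its scrambled control, at 80 mg/kg per day on 3 days. Livers were taken 24 h after the last injection, and RNA from 3 livers was pooled for each group and hybridised to 1 array. Strain, sex and age are not given in the sources used here. With 1 array per group there is no replicate error and no test or p-value could be had, so every value below describes 2 pools. In whole liver, fewer cells of a type and less RNA per cell cannot be told apart.

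The respiratory chain passes electrons from complex II, which is the succinate dehydrogenase of the citric acid cycle, by way of ubiquinone to complex III, and from there by way of cytochrome c to complex IV, where oxygen is reduced. Complexes III and IV pump protons out of the mitochondrial matrix, and complex V, the ATP synthase, uses the returning protons to make ATP. Most subunits are encoded in the nucleus, and assembly factors insert heme, copper and iron-sulfur centres and put the subunits together. Hepatocytes are rich in mitochondria.

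All signals are linear MAS5 intensities as deposited, and all ratios are log2 of the antagomir-122 signal over the mm-antagomir-122 signal, so a value below 0 means a lower signal in the antagomir-122 pool. A gene was counted as measured if its mean signal reached a floor of 238, the 60th percentile of the probe sets. Of the 63 genes 56 did, among 10003 genes in all. The last gene above the floor was Bcs1l, with a mean signal of 244, and the first below it was Cox7c, with 222. A ratio of 1.5-fold was used as the limit for calling a gene changed in size. Where a gene had several probe sets above the floor, the SD of the ratio between them was 0.22 for genes with a mean signal of 2000 or more (1186 genes) and 0.30 for dimmer genes (2674 genes). The probe sets of the spiked hybridization controls had a median ratio of -0.27, with 17 of 18 below 0, and scaling on them would add 0.27 to every ratio, so directions below are relative to the bulk of the genes. Hepatocyte markers had a median of -0.02 over 8 genes.

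The subunit genes of all the complexes were slightly lower in the antagomir-122 pool. Of 39 measured subunit genes, 38 had a ratio below 0 as deposited, 35 after quantile normalization, 33 after a loess correction and 9 when scaled on the hybridization controls. The share below 0 among all measured genes was 49.6% as deposited, and among the 1163 genes within the signal range of the subunits it was 65.9%. Within that range the share was 51.7% after quantile normalization, 50.4% after loess correction and 14.2% with the hybridization controls. The median ratio of the subunits was -0.20, or 1.15-fold lower, against 0.00 for all measured genes and -0.08 for the genes of that signal range. Under quantile normalization the subunit median was -0.11 against -0.01 for that range, under loess correction -0.13 against 0.00, and with the hybridization controls 0.08 against 0.20. The subunit median was thus below that of genes of like signal under each of these scalings, although its sign turned under the last.

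The difference was small for any single gene. None of the 39 subunits reached 1.5-fold in either direction as deposited, although Uqcrc2 passed it at -0.59 with the median of all genes set to 0, and Sdhd at -0.74 on its second probe set. Of the genes in that signal range, 0.602% were at least 1.5-fold lower. Within the probe-set SD of 0.22 from 0 lay 23 of 39 subunits. Below -0.21, the 25th percentile of the genes in that range, lay 19 of 39. Counting all members, 0 of 56 were at least 1.5-fold higher, against 5.12% of all measured genes. At least 1.5-fold lower were 2 of 56, against 2.62%. Both of these are assembly factors, and their share is near that of all genes.

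**Figure D1:**
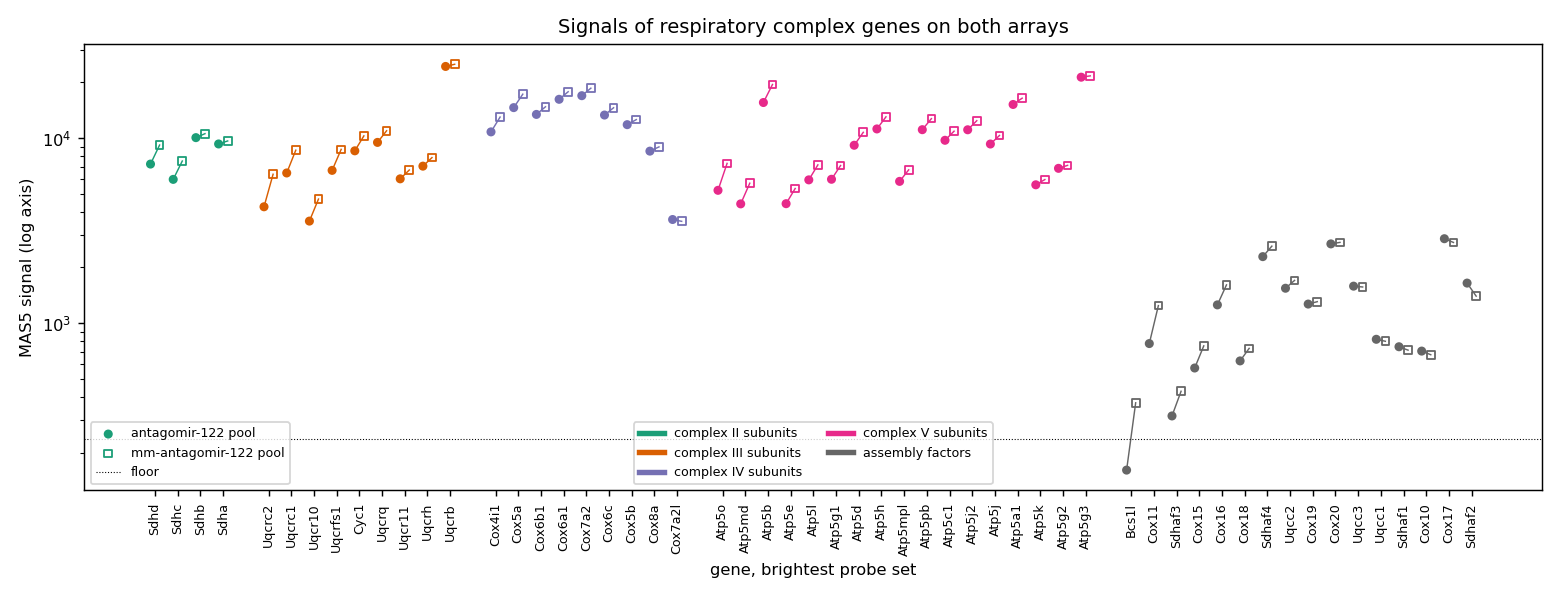
MAS5 signal (log axis) of the brightest probe set of the 39 measured subunits and 16 assembly factors, in the antagomir-122 pool (filled circles) and the mm-antagomir-122 pool (open squares), grouped by complex and, at the right, assembly factors. The antagomir-122 point is the lower of the pair for 38 of 39 subunits (9 of 39 if the arrays are scaled on the hybridization controls), and the dotted line is the floor of 238.

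**Figure D2:**
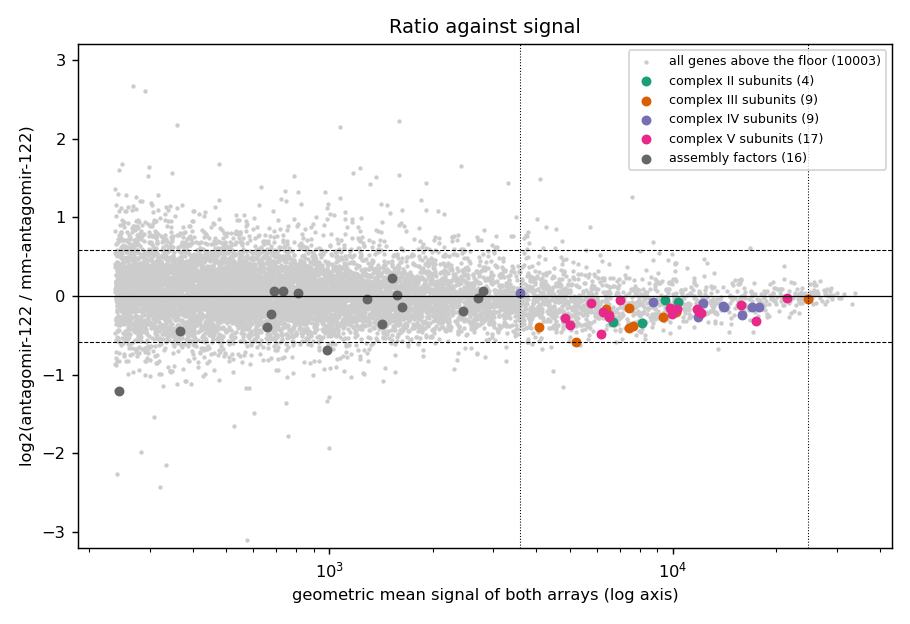
Log2 ratio of antagomir-122 over mm-antagomir-122 against the geometric mean signal (log axis) for the 10003 measured genes (grey) and the subunits and assembly factors (colours). Dotted vertical lines bound the signal range of the subunits, where 65.9% of the genes lie below 0 as deposited, and dashed lines mark 1.5-fold.

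The catalytic subunits of complex II were nearly level as deposited: Sdha, the flavoprotein that oxidises succinate, had signals of 9297 in the antagomir-122 pool and 9652 in the mm-antagomir-122 pool, a ratio of -0.05. Sdhb, the iron-sulfur subunit, had 10058 and 10565, a ratio of -0.07. The membrane anchors, which hold the complex in the inner membrane and bind ubiquinone, were lower on their brightest probe sets, but of these only Sdhd was so on both of its probe sets. Sdhc had 5984 in the antagomir-122 pool and 7520 in the mm-antagomir-122 pool, a ratio of -0.33, and its other probe set, with 5809 and 6131, had -0.08, close to Sdhb. Sdhd had 7239 and 9171, a ratio of -0.34. Its dimmer probe set, marked _x for probes that may bind other transcripts, had 963 and 1606, a ratio of -0.74, and was the only subunit probe set of 71 past 1.5-fold. The median of the 4 genes was -0.20, which the hybridization controls turned to 0.07.

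Complex III had the lowest median of the complexes, at -0.27 over 9 genes, all below 0 as deposited, and 0.01 with the hybridization controls. Uqcrc2, a core protein of the complex, had the lowest ratio of any subunit. Its signal was 4256 in the antagomir-122 pool and 6378 in the mm-antagomir-122 pool, a ratio of -0.58, just inside the limit of 1.5-fold. A second probe set of Uqcrc2 had 3794 and 4884, a ratio of -0.36, and both carry the suffix _a. The partner core protein gene Uqcrc1 had 6480 in the antagomir-122 pool and 8604 in the mm-antagomir-122 pool, a ratio of -0.41. The genes of the subunits that carry electrons were lower as well. Uqcrfs1, the Rieske iron-sulfur protein, had 6694 and 8695, a ratio of -0.38, and Cyc1, cytochrome c1, had 8537 and 10277, a ratio of -0.27. Each of these rests on 1 probe set without a suffix.

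The small subunits of complex III were less uniform. Uqcrq, Uqcr11 and Uqcrh had ratios of -0.21, -0.16 and -0.15, and the other probe set of Uqcrh had -0.33. Uqcr10 had 3561 in the antagomir-122 pool and 4684 in the mm-antagomir-122 pool, a ratio of -0.40, but its other probe sets went the other way, at 0.19 and 0.08. Uqcrb had signals of 24386 and 25052 on its brightest probe set, a ratio of -0.04. Its second probe set, without a suffix, had 6134 in the antagomir-122 pool and 8434 in the mm-antagomir-122 pool, a ratio of -0.46. Signals above 16000 lie near the top of the range, where a difference can be hidden. The median of complex III without Uqcrb was -0.32.

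**Figure D3:**
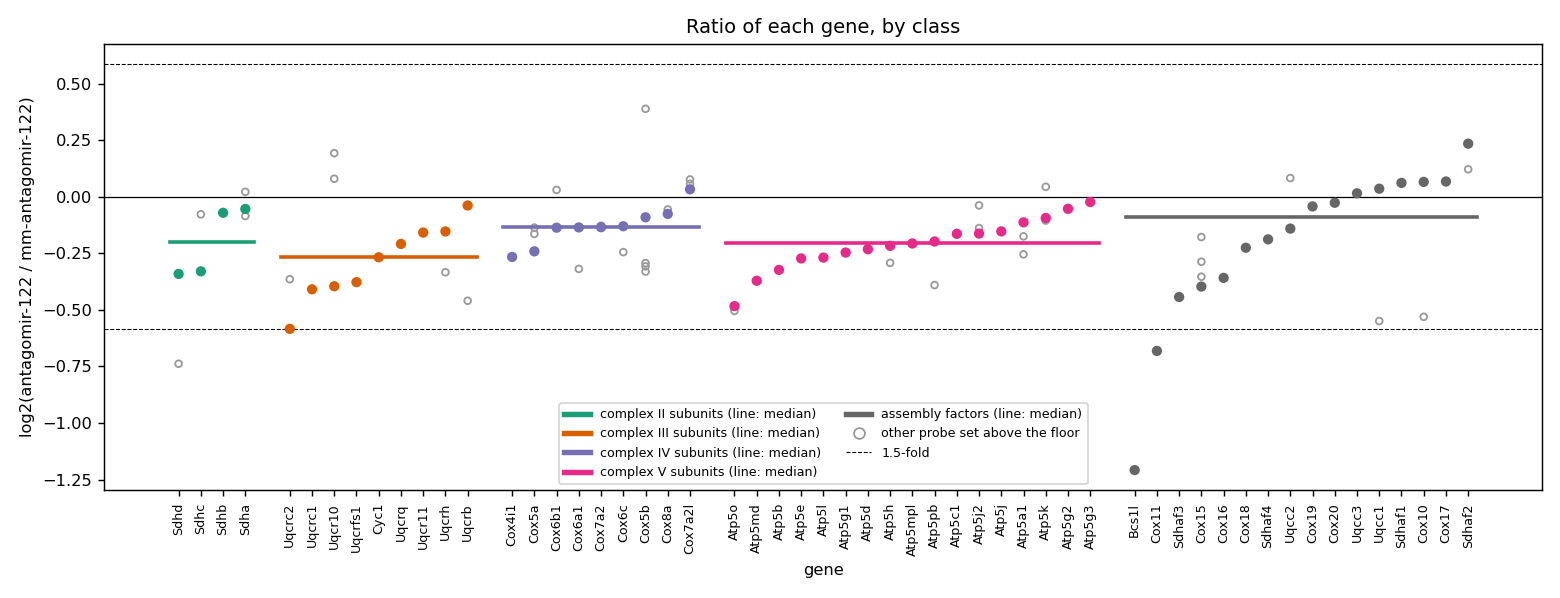
Log2 ratio of antagomir-122 over mm-antagomir-122 for the measured subunits and assembly factors (filled, brightest probe set), other probe sets of the same gene above the floor (open grey), class medians (lines) and the 1.5-fold limits (dashed). As deposited the class medians run from -0.27 for complex III to -0.09 for assembly factors, and each would lie 0.27 higher when scaled on the hybridization controls.

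Complex IV subunits had a median of -0.13 over 9 genes as deposited and 0.14 with the hybridization controls. Cox4i1, the regulatory subunit 4, had 10804 in the antagomir-122 pool and 12992 in the mm-antagomir-122 pool, a ratio of -0.27, the lowest of the class. Cox5a had 14610 and 17271, a ratio of -0.24. Cox6b1, Cox6a1, Cox7a2 and Cox6c were alike at -0.14, -0.14, -0.13 and -0.13, of which Cox6a1 and Cox7a2 are the liver-type isoforms and have signals above 16000 on both arrays. Cox8a had -0.08, and its other probe set -0.06. Cox5b had 11820 and 12589 on its brightest probe set, a ratio of -0.09, while 3 further bright probe sets had -0.29, -0.31 and -0.33 and a dim one, with signals of 321 and 245, had 0.39. All but Cox6c of these 9 genes were represented by probe sets marked _a or _x. The exception in sign was Cox7a2l, a member of the subunit 7a family that joins complexes III and IV into supercomplexes. Its signals were 3632 in the antagomir-122 pool and 3551 in the mm-antagomir-122 pool, a ratio of 0.03, and its other probe sets also lay above 0, up to 0.08. The complex III median lay below the complex IV median by 0.13 as deposited, and by 0.12 to 0.20 over 13 settings. Among these settings, median and hybridization-control scaling add a constant and cannot change this difference. A higher floor cannot either, since it leaves out no measured subunit, nor can setting signals under the floor to it. A pseudocount, small against these signals, and a lower floor, which only adds Cox7c, left the difference at 0.13. The range thus rests on quantile and loess scaling, the choice of probe sets and leaving out members above 16000. Complex IV genes were also brighter, with a median signal of 13939 against 7467 for complex III. The difference between these complexes was not tested.

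The tissue-restricted isoforms of complex IV were mostly below the floor. The muscle isoforms Cox6a2, Cox7a1 and Cox8b had signals of 213, 164 and 63.6 in the antagomir-122 pool and 201, 234 and 44.1 in the mm-antagomir-122 pool. The lung isoform Cox4i2 had 206 and 153, and the testis isoforms Cox6b2 and Cox7b2 had 172 and 10.9 in the antagomir-122 pool and 118 and 7.1 in the mm-antagomir-122 pool. None of these 6 has a ratio that can be read, since both signals are under the floor. All 9 striated muscle and all 3 brown fat markers were also below it. Cox8c, a testis isoform, was the exception, with 1212 in the antagomir-122 pool and 1112 in the mm-antagomir-122 pool, a ratio of 0.12. Its second probe set, marked _x, had 685 and 383, a ratio of 0.84. Of 5 testis markers 1 was above the floor, Prm1, at 377 and 295 on a probe set marked _x. Cox7c, a ubiquitous subunit, was also below the floor on both of its probe sets, at 223 and 221 on the brighter.

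All 17 measured genes of the ATP synthase had ratios below 0 as deposited, with a median of -0.21, or 0.07 with the hybridization controls. The lowest was Atp5o, the oligomycin sensitivity-conferring protein at the top of the peripheral stalk. Its signal was 5222 in the antagomir-122 pool and 7300 in the mm-antagomir-122 pool, a ratio of -0.48, and its second probe set, with 1730 and 2455, had -0.50. Both are marked, _a and _x. The other stalk genes Atp5h, Atp5pb and Atp5j had -0.22, -0.20 and -0.15, and other probe sets of Atp5h and Atp5pb had -0.29 and -0.39.

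In the catalytic F1 head, the beta subunit gene Atp5b had 15569 in the antagomir-122 pool and 19480 in the mm-antagomir-122 pool, a ratio of -0.32 on its only probe set. The alpha subunit gene Atp5a1, with which it forms the catalytic sites, had 15195 and 16436, a ratio of -0.11, and its dimmer probe sets reached -0.25. The epsilon, delta and gamma genes Atp5e, Atp5d and Atp5c1 had -0.27, -0.23 and -0.16, each on a probe set marked _s. The c-ring genes Atp5g1, Atp5g2 and Atp5g3 encode the same mature subunit c behind different import sequences, and had ratios of -0.25, -0.05 and -0.02. Atp5g3 had signals of 21334 in the antagomir-122 pool and 21684 in the mm-antagomir-122 pool, near the top of the range. Among the membrane subunits Atp5md, known as DAPIT, had 4412 and 5707, a ratio of -0.37. Atp5l, Atp5mpl, Atp5j2 and Atp5k had -0.27, -0.21, -0.16 and -0.09, and a further probe set of Atp5k had 0.04.

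Probe sets of the same gene mostly gave the same sign. Of 22 subunits with several probe sets above the floor, 16 had all of them below 0 as deposited and 5 had probe sets of both signs, namely Sdha, Uqcr10, Cox5b, Cox6b1 and Atp5k. The remaining gene is Cox7a2l. Over all 71 subunit probe sets above the floor, 62 were below 0 and the median was -0.16. The share below 0 over all probe sets of the array was not computed. The 16 subunits on probe sets without a suffix had a median of -0.16, and the 23 on marked probe sets had -0.21. When only probe sets without a suffix were used for every gene, 24 of 27 subunits were below 0, with a median of -0.14. Of the 892 genes then in the signal range of the subunits, 64.5% were below 0. The subunit median then lay 0.08 below that of genes of mean signal 2000 or more, against 0.14 with all probe sets. The complex II median was then -0.07, level with the -0.07 of genes in the signal range of the subunits. Probe sets marked _a share probes among transcripts of a gene or its family, and those marked _s and _x can bind transcripts of other genes, among them processed pseudogenes, which many of these genes have.

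The assembly factors showed no common direction on their brightest probe sets. They had a median of -0.09 over 16 genes. Of these 10 were below 0 (49.6% of all measured genes), or 5 under hybridization-control scaling (15.9%). They lay 0.11 above the subunits in median, but 0.00 apart when the probe sets of a gene were averaged. So averaged, 12 of 16 assembly factors were below 0 (50.0% of all measured genes), with a median of -0.21, the same as for the subunits. On the second brightest probe set 11 of 16 assembly factors were below 0 (50.5% of all measured genes). Their contrast with the subunits thus depends on the probe set. The mean signals of the assembly factors ran from 244 to 2795, below those of every subunit measured, so their ratios carry more error. At 0.30, the probe-set SD of dimmer genes, 5 of the 16 ratios lie farther from 0 than that. The share of all dimmer genes beyond it was not computed, so this count cannot be called unusual.

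Both members past 1.5-fold belong to this class. Bcs1l, the chaperone that puts the Rieske protein into complex III, had 161 in the antagomir-122 pool and 371 in the mm-antagomir-122 pool. As the antagomir-122 signal is under the floor, it was at least 1.56-fold lower, on 1 probe set. Its client gene Uqcrfs1 had a ratio of -0.38, as given above. Cox11, which is needed to place copper in complex IV, had 776 in the antagomir-122 pool and 1245 in the mm-antagomir-122 pool, a ratio of -0.68 or 1.60-fold lower, also on 1 probe set above the floor. Sdhaf3, an assembly factor of complex II, had 315 and 429, a ratio of -0.44. Cox15, which makes heme A from heme O, had 573 and 754, a ratio of -0.40, and its 4 probe sets lay between -0.40 and -0.18. Cox16 had 1256 and 1610, a ratio of -0.36. Cox18, which inserts a complex IV subunit into the membrane, had -0.23, and Sdhaf4 and Uqcc2 had -0.19 and -0.14.

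The others were near level or higher. Sdhaf2, which attaches the flavin to Sdha, had the highest ratio of any member with 1647 in the antagomir-122 pool and 1400 in the mm-antagomir-122 pool, a ratio of 0.23, and 0.12 on its other probe set. Cox17, the copper carrier of complex IV assembly, had 0.07, Sdhaf1 had 0.06 and Uqcc3 had 0.01. Cox19 and Cox20 had -0.04 and -0.03. Cox10, which makes heme O, had 0.07 on its brightest probe set and -0.53 on its second, with signals of 438 and 632. Uqcc1 had 0.04 on its brightest and -0.55 on its second, with 625 and 914. The ratios of these genes are not settled, since their probe sets lie farther apart than the spread. A probe set that names both Cox14 and Gm29733 was left out by the rule, with signals of 1906 and 1444.

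Genes of the same pathway with other symbols showed the same pattern in part. Of 16 measured assembly factors outside the symbol rule, 13 were below 0 as deposited (49.6% of all measured genes), with a median of -0.25. By their measured signals 3 were at least 1.5-fold lower (2.62% of all genes), and 2 of these, Coa7 and Atpaf2, also with signals under the floor set to it. Coa7, a complex IV factor, had 697 in the antagomir-122 pool and 1327 in the mm-antagomir-122 pool, 1.90-fold lower. Atpaf2, a chaperone of the F1 head, had 205 and 410, at least 1.72-fold lower against the floor. Ttc19, a complex III factor, had 214 and 350, only at least 1.47-fold lower against the floor, and another probe set went the other way with 327 and 224. Atpaf1 also had probe sets of both signs, at -0.55 and 1.29, as did Cmc2, at -0.20 and 0.07, and Coa5, at 0.30 and -0.13. Tmem70, an ATP synthase factor, had -0.49, and Atpif1, the inhibitor of the ATP synthase, had 0.43.

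The list of electron carriers and their synthesis, mostly enzymes that make ubiquinone, had a median of -0.20 over 12 genes. Of these 8 were below 0 as deposited, against 49.6% of all measured genes. Cycs, cytochrome c, which links complexes III and IV, had 9059 in the antagomir-122 pool and 11946 in the mm-antagomir-122 pool, a ratio of -0.40, and its other measured probe sets had -0.35 and -0.40. Etfdh and Etfa, which bring electrons from fatty acid oxidation to ubiquinone, had -0.42 and -0.42. The brighter Etfb had 15242 in the antagomir-122 pool and 16141 in the mm-antagomir-122 pool, a ratio of -0.08. The 4 genes of this list above 0 were Coq3, Coq4, Coq7 and Pdss2, at 0.01, 0.05, 0.20 and 0.01. Of 10 genes for mitochondrial transcription and its regulators 8 were below 0, with a median of -0.26. Ppargc1a, a coactivator of mitochondrial genes, had -0.22 on its brightest probe set, and its 5 probe sets lay between -0.64 and -0.22. Tfam and Polrmt, of the mitochondrial transcription machinery, had -0.38 and -0.38 on their brightest probe sets, and -0.10 and -0.23 on their second. Nrf1 and Gabpa, which encode activators of respiratory genes, had 0.01 and -0.01 on their brightest. Their second probe sets were not level, at 0.43 for Nrf1 and -0.28 for Gabpa. Scaled on the hybridization controls, which adds 0.27, the medians of these lists would lie near or above 0.

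Other mitochondrial proteins lay near level, 10 of 16 below 0 as deposited and their median at -0.04. The citrate synthase gene Cs stood out from them, with 5033 in the antagomir-122 pool and 2864 in the mm-antagomir-122 pool, 1.76-fold higher, and was 1 of 16 past 1.5-fold (5.12% of all genes). Its other probe sets had ratios of 0.88 and 0.17. Idh3a, of the citric acid cycle, had 0.45, and Fh1 and Idh2, also of that cycle, had -0.37 and -0.36.

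Leukocyte markers other than Elane were higher in the antagomir-122 pool, whereas hepatocyte markers were level. Neutrophil markers had a median of 1.30 over 6 measured genes of 7, of which Elane alone was below 0, at -0.31. The signals of all 7 summed to 8026 in the antagomir-122 pool and 2461 in the mm-antagomir-122 pool. Macrophage markers had a median of 0.42 over 9 of 9, with sums of 58323 and 42161. Lymphocyte markers had 0.67 over 5 of 6, and the sums over all 6, with Cd3e under the floor, were 6362 and 3744. The hepatocyte markers summed to 167380 and 168060, and 5 of 8 had signals above 16000 on both arrays. No marker was listed at 0. The part of the cell mixture in the lower subunit signals was not tested.

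**Figure D4:**
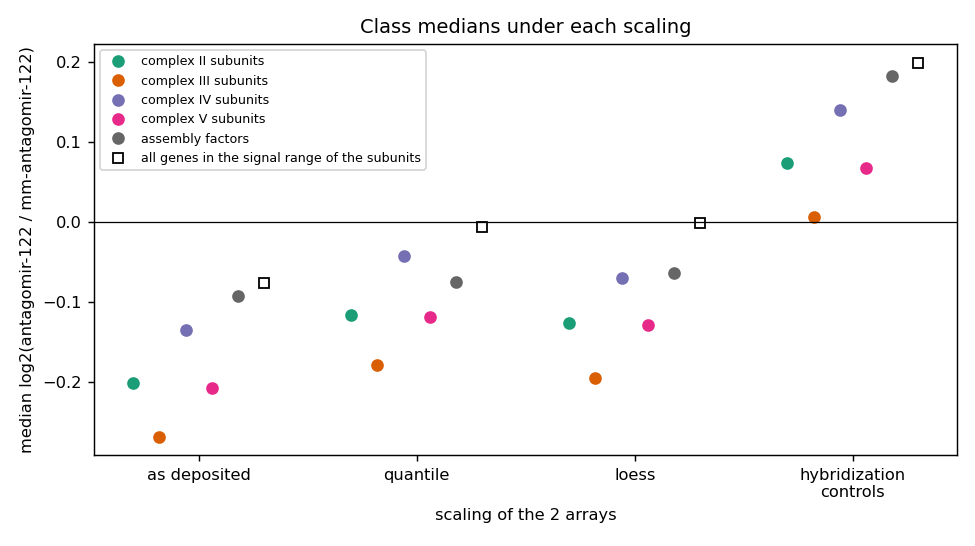
Median log2 ratio of antagomir-122 over mm-antagomir-122 of each class as deposited and under quantile, loess and hybridization-control scaling, with the median of all genes in the signal range of the subunits (open squares). The class medians of the 4 complexes lie below that square under each scaling, while all lie above 0 under the hybridization controls.

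The promoters were searched because nearly all subunit genes had ratios of the same sign as deposited, and because nuclear respiratory genes are known targets of NRF1 and of the ETS factor GABP. RefSeq promoters of build GRCm38.p6 were matched for 49 of the 63 genes, and the 250 bases before the gene start were read, without the first exon. On either strand, GCGC followed by any base and TGCGC, a form of the NRF1 site, was found in 6 of 31 subunit promoters (19.4%) and 1 of 14 assembly factor promoters (7.14%), against 3.86% of the promoters of 27025 genes. CCGGAAG, the core of an ETS site, was found in 8 of 31 (25.8%) and 6 of 14 (42.9%), against 7.05%. AAGATGGC, a form of the YY1 site, was found in 0 of 31 and 1 of 14, against 1.59%. Matches of different motifs overlapped in 0 member promoters. The 27025 genes were not limited to those measured in these livers, and the share among measured genes was not computed. A match describes letters and not binding, and a link between the motifs and the ratios was not tested.

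The subunit promoters that hold both of the first motifs are shown with the promoters of Atp5o and Bcs1l, the ATP synthase gene with the lowest ratio and an assembly factor past 1.5-fold. Capitals mark the matches. They run 5′ to 3′ on the strand of the gene and end at the base before its start. Sdhd is at chr9:50603850-50604099 on the minus strand, Cox6a1 at chr5:115348959-115349208 on the minus strand, Atp5h at chr11:115419920-115420169 on the minus strand, Atp5o at chr16:91931631-91931880 on the minus strand and Bcs1l at chr1:74588039-74588288 on the plus strand.
Sdhd: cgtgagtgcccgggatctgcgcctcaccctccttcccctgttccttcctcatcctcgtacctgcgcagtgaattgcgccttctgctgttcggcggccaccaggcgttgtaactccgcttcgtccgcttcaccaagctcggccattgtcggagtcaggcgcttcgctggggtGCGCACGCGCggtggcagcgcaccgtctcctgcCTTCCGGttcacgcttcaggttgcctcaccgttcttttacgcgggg
Cox6a1: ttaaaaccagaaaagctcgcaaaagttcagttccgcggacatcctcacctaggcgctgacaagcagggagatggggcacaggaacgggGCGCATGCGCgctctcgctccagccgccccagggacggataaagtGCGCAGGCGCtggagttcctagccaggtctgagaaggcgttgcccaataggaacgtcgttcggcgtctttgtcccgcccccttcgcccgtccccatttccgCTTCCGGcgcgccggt
Atp5h: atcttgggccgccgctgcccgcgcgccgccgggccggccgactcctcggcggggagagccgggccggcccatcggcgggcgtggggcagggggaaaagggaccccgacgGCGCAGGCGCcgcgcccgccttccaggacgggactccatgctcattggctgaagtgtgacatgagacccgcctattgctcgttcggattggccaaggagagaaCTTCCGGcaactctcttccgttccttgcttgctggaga
Atp5o: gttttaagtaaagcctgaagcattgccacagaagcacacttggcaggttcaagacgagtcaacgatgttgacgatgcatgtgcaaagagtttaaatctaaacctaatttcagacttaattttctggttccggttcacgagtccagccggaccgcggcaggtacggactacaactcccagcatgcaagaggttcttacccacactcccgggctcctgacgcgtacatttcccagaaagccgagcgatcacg
Bcs1l: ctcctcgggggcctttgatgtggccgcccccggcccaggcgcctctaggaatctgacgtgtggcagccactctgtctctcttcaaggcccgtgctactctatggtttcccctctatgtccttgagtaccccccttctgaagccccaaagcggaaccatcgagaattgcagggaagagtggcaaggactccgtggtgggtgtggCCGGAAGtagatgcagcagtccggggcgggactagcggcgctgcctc
Sdhd, with a ratio of -0.34, has an NRF1 match that begins at position -79 and an ETS match at -46. Cox6a1, with -0.14, has NRF1 matches that begin at positions -162 and -117 and an ETS match that begins at -16, counted from the start. Atp5h, with -0.22, has an NRF1 match that begins at -141 and an ETS match at -38. Bcs1l has an ETS match that begins at -47, and in Atp5o no match lies in this window.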

How the data were processed

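Liver RNA pooled from 3 mice per group was measured on 1 single-colour Affymetrix array for antagomir-122 and 1 for mm-antagomir-122, and samples were grouped by their titles. The deposited values were signal intensities on a linear scale for 45101 probe sets, and the submitters' processing notes name MAS5, without a version. The antagomir-122 and mm-antagomir-122 arrays had the same 2% trimmed mean, 500. This equates the bulk of their probe sets and does not show that they share a scale for all of them. The hybridization controls had a median ratio of -0.27. No detection calls, probe-level values or probe sequences were used.

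Gene symbols came from the array's annotation, and 63 of 63 members had the same symbol in RefSeq (GRCm38.p6). The annotation gave 34945 probe sets 1 gene, 932 several and 9160 none. The ratio, the floor at the 60th percentile and the brightest probe set per gene are as given above, with no pseudocount. Calculations used Python 3.11.15, pandas 2.3.3 and statsmodels 0.14.6 (loess), and were tested on simulated data. Every member may be named, and full values went to those past 1.5-fold, the extremes of each class, isoform pairs and genes whose probe sets disagreed. The members and lists were chosen with earlier results of these data known. The signal range of the subunits, used as a comparison, was chosen after seeing the data. The number of arrays limits the precision. Alternatives were median, quantile, loess and hybridization-control scaling, a pseudocount, a floor at the 40th or the 80th percentile, signals set to the floor, the mean over probe sets, the second brightest probe set, probe sets without a suffix, members above 16000 left out, and limits of 1.4-fold and 2-fold.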

Additional observations from a re-analysis of the deposited data

How the results depend on the processing

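No paired analysis was possible because each group holds 1 array, and no replicate could be left out. Scaled on the hybridization controls, the medians were 0.11 for all members, 0.074, 0.0069, 0.14 and 0.068 for complexes II, III, IV and V and 0.18 for assembly factors, and 1 member was at least 1.5-fold lower. Quantile normalization moved the medians to -0.11 for all members, -0.042 for complex IV and -0.12 for complex V, and loess correction to -0.10 for all members and -0.13 for complex V. Averaging probe sets gave -0.21 for all members, -0.21 for assembly factors and a difference of 0.00 (-0.00029) between assembly factors and subunits. The second brightest probe set gave -0.21 for all members, -0.18 for assembly factors and 1 member at least 1.5-fold higher, Cox8c. A floor at the 80th percentile, or a limit of 2-fold, left 1 member lower. With the median of all genes set to 0, the second brightest probe set or a limit of 1.4-fold, 3 were lower. The cause of the shifts was not tested. The shift taken as a move was the probe-set SD over all genes, 0.28, divided by the square root of the number of genes. With the 0.22 of brighter genes it would be narrower for the subunits. Of 84 alternative values of the medians and their difference, 68 stayed within it. Many hardly could leave it, since floors and a pseudocount scarcely touch signals as high as those of the subunits. Setting the median of all genes to 0 moves each ratio by only 0.0027. Of 650 single-gene values 636 stayed within 0.28, the probe-set SD over all genes. Many of the 650 could not move, since a changed floor or leaving out bright members does not alter a gene's ratio. Nor can a gene with 1 probe set move under a choice of probe sets. Moved values numbered 4 with the mean over probe sets, 6 with the second brightest, 3 without suffixes and 1 with signals set to the floor. The 0.27 that the hybridization controls add is just within the limit of 0.28, but beyond the 0.22 of genes of 2000 or more. Genes past 1.5-fold numbered 512 higher and 262 lower as deposited (66.2% higher), 1693 and 63 with the hybridization controls (96.4%), 1163 and 531 with a floor at the 40th percentile and 184 and 98 at the 80th. Dim signals, without detection calls, cannot be told from background, which bears on Bcs1l, and signals above 16000 can hide a difference.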
